A study of Mus musculus with 24 samples.

Results

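Transcripts of the integrated stress response were followed in optically exercised mouse muscle through 10 genes: the transcription factor Atf4, its relatives Atf5 and Ddit3, and 7 genes that ATF4 is known to activate (Trib3, Chac1, Asns, Psat1, Phgdh, Sesn2, and Slc7a5). Members were taken by gene name from the 56941 genes of the count table, and all 10 passed the filter on low counts, which kept 13318 genes. The name Ddit3 also belongs to a 2nd identifier with 0 counts in all 24 libraries, and the values below are those of the first.

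In the integrated stress response, stress kinases phosphorylate the translation initiation factor eIF2, which slows protein synthesis as a whole while the mRNA of Atf4 is translated more. The kinases sense different things: PERK misfolded proteins in the endoplasmic reticulum (ER), GCN2 a lack of amino acids, PKR double-stranded RNA, and HRI heme loss or mitochondrial stress. ATF4 then drives genes that make and import amino acids, and, under prolonged stress, genes that restrain the response or favor cell death. In skeletal muscle this program is known from mitochondrial disease, fasting, and disuse. Since ATF4 is controlled largely at translation, mRNA levels of its targets and the protein level of ATF4 are different quantities, and only mRNA was measured here.

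The tissues were 2D sheets of C2C12 muscle, an immortal mouse line of myoblasts that fuse into fibers. Every group carried the same ChR2::tdTomato genotype (channelrhodopsin, which opens to blue light, joined to a red fluorescent protein), was cultured on grooved fibrin gel, received IGF-1 with horse serum during differentiation, and was harvested after about 2 weeks. Tissues received light for 30 min daily at 1, 4, or 10 Hz, and control tissues were unstimulated, with 6 biological replicates in each of the 4 conditions. All tissues came from 1 engineered line. Light and the contraction it drives cannot be told apart, since no group without ChR2 was analysed here. The study reports spontaneous twitching in every condition, so control tissues were unstimulated but not at rest. Contraction during the daily light was not measured here.

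The 24 libraries held 4.09 to 15.2 M (mega) counts. The labels call the cells myoblasts, whereas all 8 muscle fiber markers were at 1 CPM (counts per M of the library) or more in every condition, with a summed level of 6604 to 8318 CPM in control, 9763 to 13121 at 1 Hz, 10421 to 15468 at 4 Hz, and 7244 to 11542 at 10 Hz. The 5 fibroblast markers summed to 48.9 to 93.9 CPM over all libraries. Libraries were made from poly(A) RNA, but samples of low input were ribodepleted instead, and the labels do not tell them apart. Small RNAs without a poly(A) tail (21 genes found) took 96.1 to 167 CPM of the library total in control, 14.6 to 69.8 at 1 Hz, 18.3 to 49.7 at 4 Hz, and 36.9 to 271 at 10 Hz. This share did not overlap between control and either 1 or 4 Hz, so its part in those comparisons cannot be told apart from that of stimulation, and values with it as a covariate are given below. Transcripts of the mitochondrial genome took 2.01 to 3.18% of counts in control, 1.46 to 2.47% at 1 Hz, 1.80 to 4.71% at 4 Hz, and 2.28 to 4.79% at 10 Hz, and values with this share as a covariate, chosen after seeing the data, are given too.

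ATF4 binds DNA as a dimer, often with a C/EBP protein, at a composite element whose core is close to TGATGNAA, where N is any base. Exact matches on either strand were looked for between 500 bases before and 500 bases after the start of each gene's canonical transcript (GRCm39, GENCODE annotation), and are shown because these genes moved together. 5 of the 10 genes held a match, against 6.98% of 11986 promoters of tested genes. In a narrower window, 250 bases before to 50 after the start, 2 of the 10 held one against 2.34%, and the wider window was chosen after this count was seen. The matches are printed on the strand of the gene with the motif in capitals and 10 bases on each side, and where the capitals end in TCA the motif lies on the opposite strand.

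Ddit3, chr10:127126351-127126378, plus strand, motif at -199 to -192 from the start: ttgccaaacaTTGCATCAtccccgcccc

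Chac1, chr2:119181520-119181547, plus strand, motif at -159 to -152: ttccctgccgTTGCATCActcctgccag

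Sesn2, chr4:132238054-132238081, minus strand, motif at -256 to -249: tgaagtcccgTTTCATCAcgcagcccta

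Trib3, chr2:152185949-152185976, minus strand, motif at 46 to 53, in the first exon: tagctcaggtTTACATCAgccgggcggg

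Asns, chr6:7693215-7693242, minus strand, motif at 487 to 494, in the first exon of its canonical transcript: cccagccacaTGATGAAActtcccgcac

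The Ddit3 and Chac1 matches were the same 8 letters, TGATGCAA on the minus strand. Sesn2 and Asns shared TGATGAAA, and Trib3 had TGATGTAA. No exact match was found in these windows for Atf4, Atf5, Psat1, Phgdh, or Slc7a5, which says only that these letters are not there. A match is a description of the sequence and was not tested as a site.

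Most of the 10 genes were higher in the 1 and 4 Hz libraries than in control, and most were not in the 10 Hz libraries. At 1 Hz, 8 of the 10 rose and 0 fell (edgeR quasi-likelihood test, Benjamini-Hochberg (BH) adjusted p below 0.05 over 13318 genes and an absolute log2 fold change above 0.5), against 9.34% of all tested genes that rose and 8.99% that fell. At 4 Hz, 6 rose and 1 fell, against 10.5% and 9.61% of all genes. At 10 Hz, 1 rose and 1 fell, against 1.24% and 0.623%. The 10 genes were chosen with earlier results of these data known, so the shares of all genes are not an independent yardstick for them. The median log2 fold change of the 10 was 0.71 at 1 Hz, 0.59 at 4 Hz, and 0.03 at 10 Hz, where the medians over all tested genes were -0.01, -0.01, and -0.01. These comparisons share the same 6 control libraries. By limma on log2(TPM + 1), 8 passed at 1 Hz, 3 at 4 Hz (Psat1 and Phgdh higher and Sesn2 lower, with Atf5 at 0.40, Ddit3 and Asns at 0.37, and Chac1 at 0.55 and an adjusted p of 0.0693), and 0 at 10 Hz, and on that scale the median of all genes at 4 Hz was -0.16. Of all 13627 genes in that limma fit, 828 rose and 1157 fell at 1 Hz, 677 and 2057 at 4 Hz, and 77 and 157 at 10 Hz. Scaling by total count lost the call for Atf4 at 1 Hz (0.49), for Asns (0.45) and Chac1 (0.55, adjusted p = 0.0559 by edgeR) at 4 Hz, and for Phgdh at 10 Hz (0.50). In bulk RNA, a change in the number of fibers and a change in RNA per fiber cannot be told apart. With the small RNA share as a covariate, 0 of the 10 genes passed at 1 Hz, 2 at 4 Hz (Psat1 and Phgdh), and 1 at 10 Hz (Sesn2), where 6, 5, and 4 of the 10 had an unadjusted p below 0.05. The median log2 fold change of the 10 was then 0.42 at 1 Hz, 0.23 at 4 Hz, and -0.03 at 10 Hz. Some changes moved little, such as Ddit3 at 1 Hz (0.48 to 0.46) and 4 Hz (0.64 to 0.62), and others more, such as Trib3 at 1 Hz (0.66 to 0.10) and Chac1 at 4 Hz (0.66 to 0.06). In that fit 1 gene of all 13318 rose and 0 fell at 1 Hz, with 136 and 86 at 4 Hz and 124 and 80 at 10 Hz. With the mitochondrial share as the covariate instead, 7 of the 10 passed at 1 Hz (not Trib3, 0.41), 6 at 4 Hz (not Sesn2, -0.42), and 1 at 10 Hz (Phgdh, 0.71), with medians of 0.59, 0.61, and 0.16. Of all 13318 genes in this mitochondrial fit, 1233 rose and 1194 fell at 1 Hz, 1431 and 1337 at 4 Hz, and 239 and 124 at 10 Hz.

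**Figure D1:**
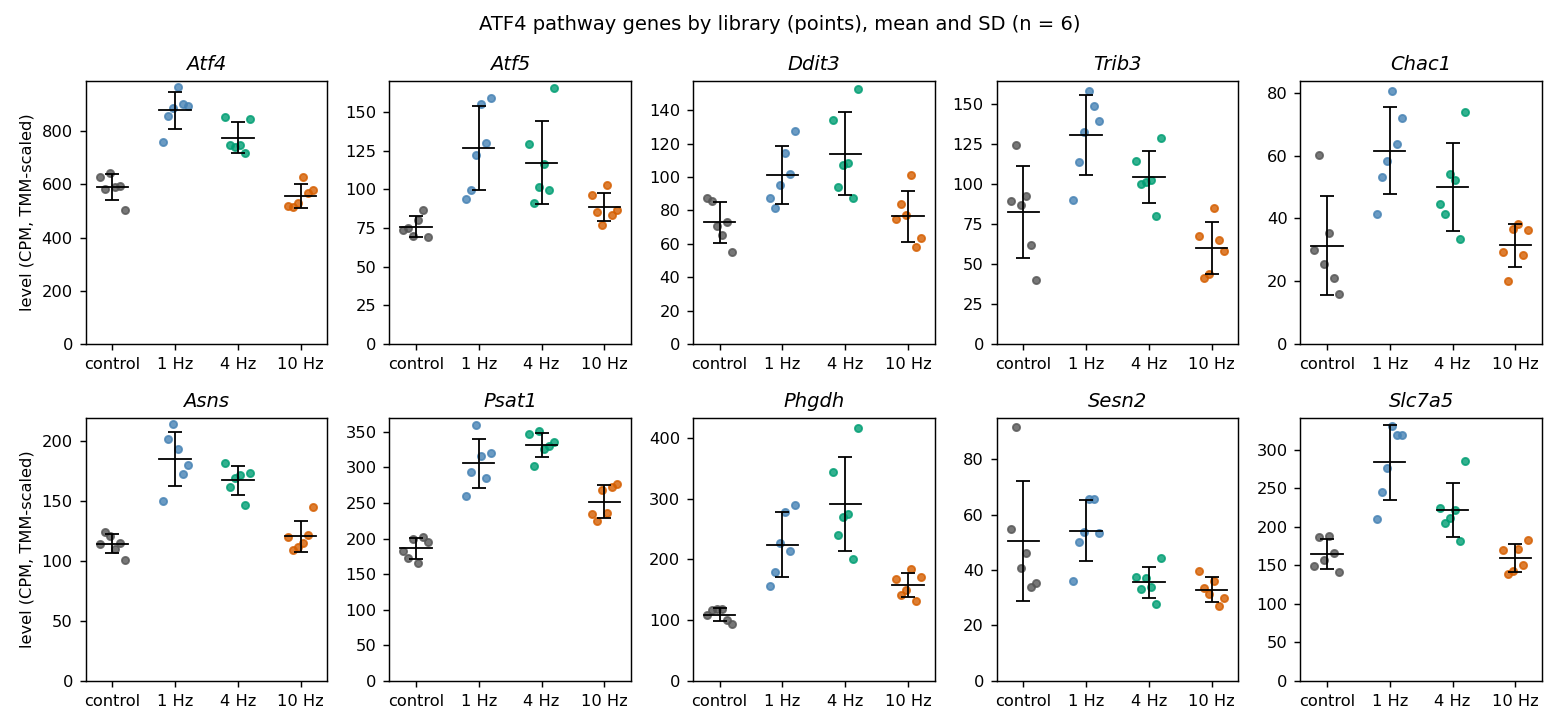
Level of each of the 10 genes (vertical axis, CPM scaled by TMM) in control, 1, 4, and 10 Hz libraries, with each point a library and bars the mean and SD of 6. For Atf4, Asns, and Psat1 all 1 Hz and 4 Hz points lie above all control points, whereas 1 control library of Sesn2 (91.7 CPM) stands apart.

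Atf4 (chr15:80139372-80141745, plus strand, 3 exons) encodes the central factor of the response. Its control libraries ranged from 503 to 643 CPM with a median of 593. They ranged from 756 to 964 at 1 Hz (median 890), from 717 to 852 at 4 Hz (median 747), and from 513 to 627 at 10 Hz (median 547). All 12 libraries at 1 and 4 Hz lay above every control and every 10 Hz library. Atf4 rose at 1 Hz, with a log2 fold change of 0.57 ± 0.07 (SE, adjusted p = 5.02e-06) or a ratio of 1.49. At 4 Hz the change of 0.39 ± 0.07 (adjusted p = 0.000163) was under the fold limit, although the libraries did not overlap. At 10 Hz it was -0.09 ± 0.07 (adjusted p = 0.542), with a 95% interval of -0.23 to 0.06. Atf4 was also the most abundant of the 10 per transcript length, with a control median of 552 TPM (transcripts per M), where Ddit3 had 160, Psat1 118, Phgdh 94.2, Asns 90.3, Slc7a5 67.2, Atf5 66.7, Trib3 66.3, Chac1 26.1, and Sesn2 18.5.

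Atf5 (chr7:44461680-44466082, minus strand, 3 exons) encodes a related bZIP factor, itself controlled at translation by eIF2 phosphorylation. It ranged from 69.5 to 86.9 CPM in control (median 74.6), 93.9 to 159 at 1 Hz (median 126), 91.4 to 165 at 4 Hz (median 109), and 77.1 to 103 at 10 Hz (median 86.0). Neither the 1 Hz nor the 4 Hz libraries overlapped control, and both overlapped 10 Hz. Atf5 rose at 1 Hz (0.74 ± 0.13, adjusted p = 0.000147) and at 4 Hz (0.63 ± 0.13, adjusted p = 0.000505), while its 10 Hz value was 0.22 ± 0.13 (adjusted p = 0.353). Atf5 overlaps Nup62 and Il4i1 on the opposite strand, and whether counting used strand is not given in the sources used here, although the libraries were directional.

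Ddit3 (chr10:127124268-127132163, plus strand, 4 exons) encodes CHOP, a bZIP factor known for promoting cell death when stress persists. Control libraries held 55.2 to 87.4 CPM (median 72.0), 1 Hz libraries 81.4 to 127 (median 98.4), 4 Hz libraries 87.5 to 153 (median 108), and 10 Hz libraries 58.0 to 101 (median 76.0). Of the 6 libraries at 1 Hz, 5 lay above all controls, and at 4 Hz all 6 did. Ddit3 rose at 4 Hz (0.64 ± 0.14, adjusted p = 0.000927). Its 1 Hz change of 0.48 ± 0.14 (adjusted p = 0.0119) was under the fold limit and passed it without control library 1 (0.54), control library 2 (0.54), 1 Hz library 1 (0.52), or 1 Hz library 2 (0.53). Ddit3 overlaps Mars1 and Mbd6 on the opposite strand and is uncertain to the extent that reads were assigned without strand.

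Trib3 (chr2:152179337-152191958, minus strand, 4 exons) encodes a pseudokinase that is induced by ATF4 and CHOP and feeds back to restrain them. It spread widely in control, from 39.8 CPM in library 6 to 124 in library 2 (median 88.0). It held 90.0 to 158 at 1 Hz (median 136), 79.8 to 129 at 4 Hz (median 102), and 41.2 to 85.2 at 10 Hz (median 61.4). All 6 libraries at 10 Hz lay below all 6 at 1 Hz, and each of the 3 stimulated conditions overlapped control. Trib3 rose at 1 Hz (0.66 ± 0.19, adjusted p = 0.00968), with 4 of 6 libraries above all controls. Its values were 0.33 ± 0.19 at 4 Hz (adjusted p = 0.171) and -0.46 ± 0.20 at 10 Hz (adjusted p = 0.171). Trib3 passed the test at 4 Hz without control library 2 (0.50, adjusted p = 0.0437) and, as a fall, at 10 Hz without control library 6 (-0.60, adjusted p = 0.0422).

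Chac1 (chr2:119180757-119184866, plus strand, 3 exons) encodes an enzyme that degrades glutathione and is often used as a readout of the ATF4 and CHOP arm. Control libraries held 15.9 to 60.2 CPM (median 27.8), again lowest in library 6 and highest in library 2, and 1 Hz libraries held 41.4 to 80.4 (median 60.9). At 4 Hz they held 33.4 to 73.9 (median 48.4) and at 10 Hz 20.1 to 38.4 (median 32.7). Without control library 2, the highest control would be below every 1 Hz library. Chac1 rose at 1 Hz (0.96 ± 0.23, adjusted p = 0.00207) and at 4 Hz (0.66 ± 0.23, adjusted p = 0.0238). The call at 4 Hz was lost when control library 3 (0.60), control library 5 (0.58), control library 6 (0.53), or 4 Hz library 6 (0.52) was left out, with adjusted p between 0.0551 and 0.0748. At 10 Hz the value was -0.00 ± 0.23 (adjusted p = 0.998), with a 95% interval of -0.46 to 0.45.

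**Figure D2:**
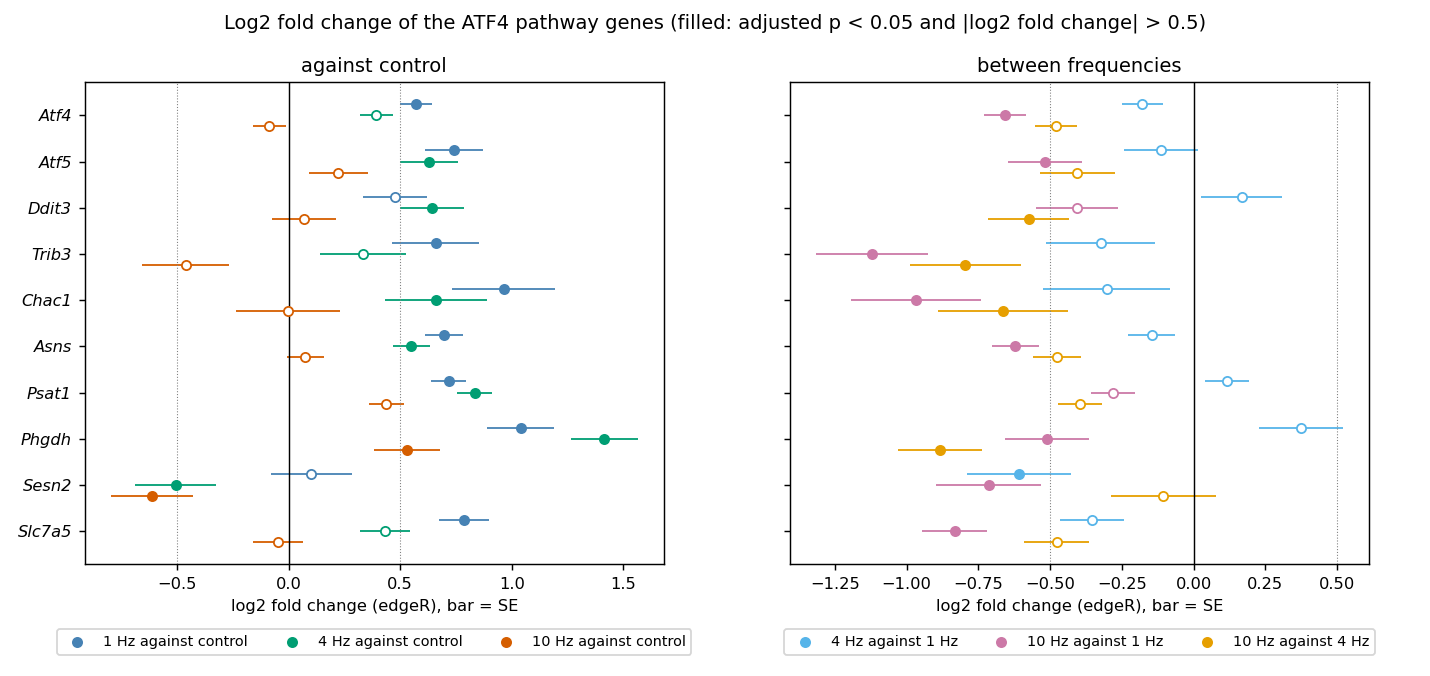
Log2 fold change (horizontal axis, edgeR) with its SE for each gene, against control (left) and between frequencies (right). Filled points passed the test, and dotted lines mark a log2 fold change of 0.5 in either direction. Against control, blue (1 Hz) and green (4 Hz) points lie to the right of 0 for every gene except Sesn2 at 4 Hz, whereas the 10 Hz points of 8 genes are open.

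Asns (chr6:7671667-7728461, minus strand, 12 exons) makes asparagine from aspartate and glutamine and is a classic target of the amino acid response. It held 101 to 124 CPM in control (median 115), 151 to 214 at 1 Hz (median 187), 147 to 182 at 4 Hz (median 171), and 109 to 145 at 10 Hz (median 118). Every 1 and 4 Hz library lay above every control and every 10 Hz library. Asns rose at 1 Hz (0.70 ± 0.08, adjusted p = 2.42e-06) and at 4 Hz (0.55 ± 0.08, adjusted p = 1.55e-05), and was 0.08 ± 0.08 at 10 Hz (adjusted p = 0.662).

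Phgdh (chr3:98220484-98255047, minus strand, 12 exons) and Psat1 (chr19:15882039-15924701, minus strand, 9 exons) encode the first and second enzymes of serine synthesis from a glycolytic intermediate, and their pattern differed from that of Atf4. Phgdh held 94.2 to 118 CPM in control (median 112), 156 to 290 at 1 Hz (median 221), 201 to 417 at 4 Hz (median 272), and 131 to 183 at 10 Hz (median 159). All 18 stimulated libraries lay above all 6 controls. Phgdh rose in all 3 comparisons with control, by 1.04 ± 0.15 at 1 Hz (adjusted p = 1.61e-05), 1.41 ± 0.15 at 4 Hz (adjusted p = 2.67e-07), and 0.53 ± 0.15 at 10 Hz (adjusted p = 0.0369). These correspond to ratios of 2.06, 2.66, and 1.44, and the 1 Hz and 4 Hz changes were the highest among the 10 genes. Its 10 Hz call was lost without any 1 of 7 libraries, namely control libraries 1, 2, 5, and 6 and 10 Hz libraries 1, 4, and 6, where the change was 0.48 to 0.56 and the adjusted p 0.0550 to 0.0862.

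Psat1 held 166 to 203 CPM in control (median 188), 260 to 360 at 1 Hz (median 305), 302 to 350 at 4 Hz (median 332), and 224 to 276 at 10 Hz (median 252). As with Phgdh, every stimulated library lay above every control. Psat1 rose at 1 Hz (0.72 ± 0.08, adjusted p = 1.11e-06) and at 4 Hz (0.83 ± 0.08, adjusted p = 5.09e-08). At 10 Hz its change of 0.44 ± 0.08 had an adjusted p of 0.00171 and was under the fold limit.

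Slc7a5 (chr8:122607884-122634433, minus strand, 10 exons) encodes LAT1, which imports leucine and other large neutral amino acids. Its libraries held 141 to 188 CPM in control (median 161), 210 to 331 at 1 Hz (median 298), 182 to 286 at 4 Hz (median 217), and 139 to 183 at 10 Hz (median 160). All 1 Hz libraries were above all controls, and so were 5 of 6 at 4 Hz. Slc7a5 rose at 1 Hz (0.79 ± 0.11, adjusted p = 1.56e-05). At 4 Hz the change was 0.43 ± 0.11 (adjusted p = 0.00356), under the fold limit, and at 10 Hz -0.05 ± 0.11 (adjusted p = 0.864).

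Sesn2 (chr4:132219335-132237815, minus strand, 10 exons) encodes a leucine sensor that holds back mTORC1. With all libraries in the fit, its changes against control departed from those of the rest. It held 33.9 to 91.7 CPM in control (median 43.5), 36.2 to 65.8 at 1 Hz (median 53.5), 27.6 to 44.3 at 4 Hz (median 35.5), and 27.1 to 39.7 at 10 Hz (median 32.5). Every condition overlapped control, where library 2 was far above the next highest, at 54.7 CPM. Its change at 1 Hz was 0.10 ± 0.18 (adjusted p = 0.688), and it fell by 0.51 ± 0.18 at 4 Hz (adjusted p = 0.0286) and by 0.61 ± 0.18 at 10 Hz (adjusted p = 0.0498). Both falls rested on control library 2, since without it the changes were -0.24 (adjusted p = 0.207) and -0.35 (adjusted p = 0.219). The 1 Hz change was 0.02 to 0.37 with 1 library left out, and 0 of those 12 fits passed the test. Within conditions Sesn2 did not depart, with a median correlation of 0.58 with the other members. At 4 Hz the call was also lost without control library 1 or 4 Hz library 2, 4, or 5 (-0.44 to -0.49). At 10 Hz it was also lost without control library 1 or 4 or 10 Hz library 2, 3, 4, 5, or 6 (-0.57 to -0.64).

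Between frequencies, the 10 genes were lower at 10 Hz than at 1 Hz. In that comparison 8 fell and 0 rose, against 8.49% of all tested genes that fell and 9.45% that rose. Trib3 had the largest fall, by 1.12 ± 0.19 (adjusted p = 9.33e-05), followed by Chac1 (0.97 ± 0.23 lower), Slc7a5 (0.83 ± 0.11 lower), Sesn2 (0.71 ± 0.18 lower), and Atf4 (0.66 ± 0.07 lower, adjusted p = 6.43e-07). For Atf4, Asns, Trib3, Chac1, and Slc7a5 the 10 Hz and 1 Hz libraries did not overlap. The other falls were Asns by 0.62, Atf5 by 0.52, and Phgdh by 0.51, while Ddit3 (-0.41, adjusted p = 0.0269) and Psat1 (-0.28, adjusted p = 0.00588) were under the fold limit. The Atf5 call was lost without 1 Hz library 4 (-0.45), 1 Hz library 6 (-0.44), or 10 Hz library 3 (-0.48). The Phgdh call was lost without 1 Hz library 4 or 6 or 10 Hz library 2, 3, or 5 (-0.42 to -0.50), and Ddit3 passed without 10 Hz library 4 (-0.50). With the small RNA share as a covariate 0 of the 10 passed (edgeR, 4 with an unadjusted p below 0.05), with Atf4 at -0.48 (adjusted p = 0.0137) and Trib3 at -0.63 (adjusted p = 0.243), and over all genes 68 rose and 118 fell in that fit. With the mitochondrial share as covariate 4 passed (Atf4, Trib3, Asns, and Slc7a5), while Chac1 was -0.49, Sesn2 -0.26, Atf5 -0.22, and Phgdh -0.08. Over all genes 1175 rose and 1190 fell in this mitochondrial fit.

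Against 4 Hz, 4 of the 10 fell at 10 Hz and 0 rose, where 5.64% of all genes fell and 5.32% rose. Phgdh fell by 0.88 ± 0.15 (adjusted p = 0.000254), Trib3 by 0.80 ± 0.19, Chac1 by 0.66 ± 0.23, and Ddit3 by 0.58 ± 0.14. Atf4 (-0.48), Asns (-0.48), Slc7a5 (-0.48), Atf5 (-0.41), and Psat1 (-0.40) had adjusted p-values of 0.000122 to 0.0250 and were under the fold limit. For Atf4, Asns, Psat1, and Phgdh the libraries did not overlap. The count was 7 without 4 Hz library 5, 6 without 10 Hz library 4 or 6, and 2 without 4 Hz library 6, which lost Ddit3 (-0.49) and Chac1 (-0.53). Chac1 was also lost without 4 Hz library 3 or 4 or 10 Hz library 1, 2, or 5 (-0.57 to -0.66, adjusted p 0.0573 to 0.0901). Slc7a5 passed without 4 Hz library 2 or 5 or 10 Hz library 1, 4, or 6 (-0.50 to -0.54), Atf4 without 4 Hz library 5 (-0.51) or 10 Hz library 4 (-0.52), and Asns without 4 Hz library 5 (-0.52) or 10 Hz library 6 (-0.54). With the small RNA share as a covariate 0 of the 10 passed (edgeR, 5 with an unadjusted p below 0.05), as did 0 of all tested genes.

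Between 4 and 1 Hz, only Sesn2 of the 10 passed, lower at 4 Hz by 0.61 ± 0.18 on the log2 scale (adjusted p = 0.0279), against 1.4% of all genes lower and 1.59% higher. With the mitochondrial share as covariate Sesn2 was -0.27 and did not pass (adjusted p = 0.272 by edgeR), whereas Phgdh was 0.67 and passed (adjusted p = 0.000503). Over all genes 292 rose and 283 fell in that fit. The Sesn2 call was also lost without 1 Hz library 4 or 5 or 4 Hz library 2, 4, or 5 (-0.55 to -0.59). Slc7a5 was -0.36 ± 0.11 (adjusted p = 0.0366), under the fold limit. Atf4 was -0.18 ± 0.07 (adjusted p = 0.107, 95% interval -0.32 to -0.04) and Phgdh 0.37 ± 0.15 (adjusted p = 0.0914, 95% interval 0.09 to 0.66). The order of mean levels was 1 Hz, 4 Hz, then control or 10 Hz for Atf4, Atf5, Trib3, Chac1, Asns, and Slc7a5, and 4 Hz, 1 Hz, 10 Hz, then control for Ddit3, Psat1, and Phgdh. For Sesn2 it was 1 Hz, control, 4 Hz, then 10 Hz. The 1 and 4 Hz levels, neighbors in the first 9 cases, did not differ past the test.

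The share of small RNA also moved with these genes within conditions. After the mean of each condition was removed, the correlation of log2 CPM with the log2 small RNA share over the 24 libraries was -0.61 for Asns, -0.55 for Atf4, -0.53 for Slc7a5, -0.52 for Psat1, and -0.01 for Ddit3, the weakest, as a description of libraries that differ in depth and may differ in preparation. The share overlapped between 10 Hz and the other frequencies, in few libraries. Atf4 held 580 CPM in 10 Hz library 6 (share 36.9) and 567 in 10 Hz library 5 (share 64.9), and it held 857 in 1 Hz library 2 (share 34.8), 740 in 4 Hz library 3 (share 49.7), and 756 in 1 Hz library 1 (share 69.8). For 8 of the 10 genes both of those 10 Hz libraries lay below the other 3, by little for Asns (145 CPM in 10 Hz library 6 and 151 in 1 Hz library 1). For the other 2 they overlapped: Phgdh was at 171 CPM in 10 Hz library 6 and 156 in 1 Hz library 1, and Psat1 at 273 and 276 in the 10 Hz libraries and 260 in 1 Hz library 1. How many of all tested genes separate in this way was not counted, so the 8 of 10 has no share to be read against. These libraries also differed in mitochondrial share, at 4.79 and 3.32% in 10 Hz libraries 5 and 6, 2.47 and 2.01% in 1 Hz libraries 1 and 2, and 3.47% in 4 Hz library 3. Against control, the shares overlapped only for 10 Hz, and with the covariate Psat1 was still 0.40 ± 0.07 at 10 Hz (adjusted p = 0.00213) and Phgdh 0.49 ± 0.14 (adjusted p = 0.0492), both under the fold limit.

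**Figure D3:**
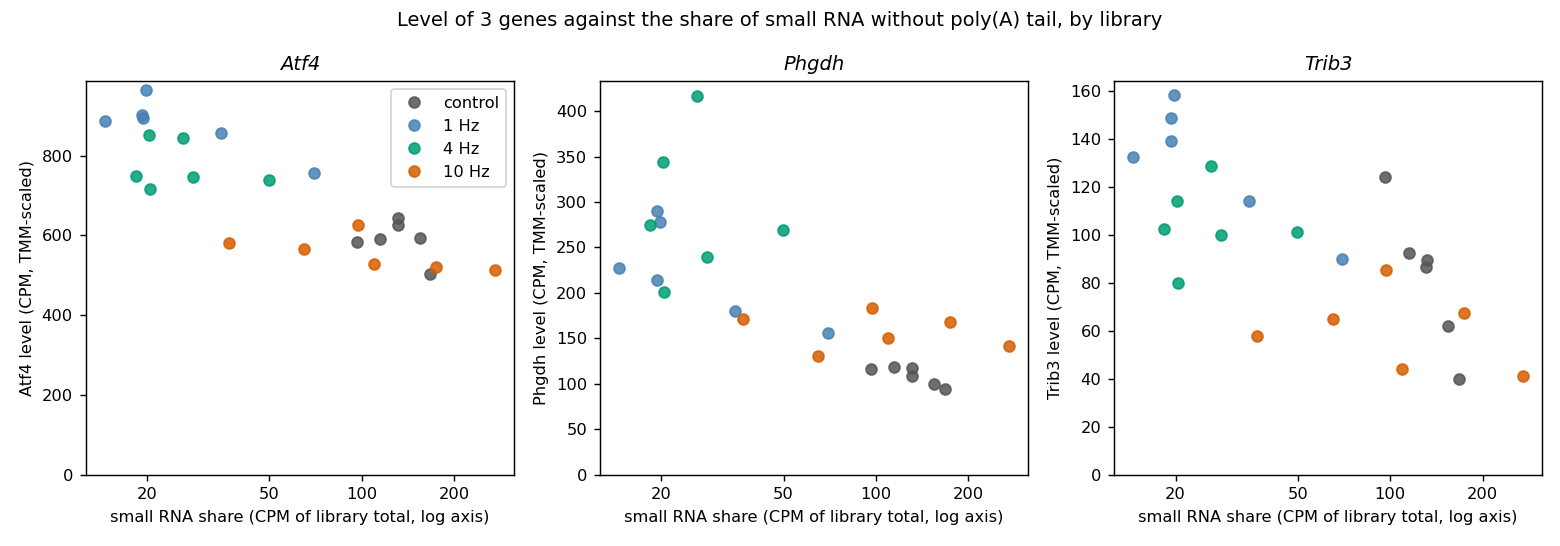
Level of Atf4, Phgdh, and Trib3 (vertical axes, TMM-scaled CPM) against the share of small RNA without a poly(A) tail (horizontal log axis, CPM of the library total), 1 point per library. Control libraries (96.1 to 167) lie to the right of all 1 and 4 Hz libraries, and the 10 Hz libraries (36.9 to 271) span the gap at Atf4 levels of 513 to 627 CPM and at Phgdh levels of 131 to 183 CPM, which overlap those of 1 Hz.

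Within a condition, most of the 10 genes rose and fell together from library to library. Over the 24 libraries with condition means removed, the 45 pairs of genes had a median correlation of 0.57 (range -0.19 to 0.86) and 42 were above 0. The 10 genes with all other tested genes had a median of 0.02 over 133080 pairs, with 68765 above 0. Those pairs ranged from -0.93 to 0.96, so the highest correlation of a member was with a gene outside the 10. The highest pairs among the 10 were Atf5 with Phgdh (0.86), Slc7a5 with Phgdh (0.86), and Trib3 with Chac1 (0.82). Psat1 was the least tied to the others, with a median of 0.15, and went best with Asns (0.55). The same libraries set the range for many genes: control library 6 was lowest for 8 of the 10, 1 Hz library 1 for 9, 4 Hz library 5 for 8, and 10 Hz library 2 for 6. At the other end, 4 Hz library 6 was highest for 7 and 10 Hz library 4 for 6. 1 Hz library 1 also had the highest small RNA share of its condition, as did control library 6 and 10 Hz library 2, and 4 Hz library 5 (share 20.4) did not. The mitochondrial share was the highest of its condition in control library 6 (3.18%), 1 Hz library 1 (2.47%), and 4 Hz library 5 (4.71%), but not in 10 Hz library 2 (3.41%, against 4.79% in library 5). It was the lowest of its condition in control library 2 (2.01%), highest for 4 of the 10 genes, in 1 Hz library 4 (1.46%), also highest for 4, and in 4 Hz library 6 (1.80%). With condition means removed, the correlation of log2 CPM with the log2 mitochondrial share over the 24 libraries was below 0 for 9 of the 10 genes, from -0.74 for Phgdh to -0.31 for Asns, and 0.22 for Psat1. The part of either share in the levels of the 10 genes was not tested beyond the fits with a covariate.

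The genes whose level followed the mean of the 10 most closely over the 24 libraries were Pck2 (Pearson's r = 0.97, and 0.92 with condition means removed), Got1 (0.97 and 0.89), Herpud1 (0.96 and 0.87), Pcx (0.96 and 0.88), and Aldh18a1 (0.96 and 0.84). Pck2 encodes the mitochondrial enzyme that makes phosphoenolpyruvate, Got1 cytosolic aspartate aminotransferase, Herpud1 a part of ER-associated degradation, Pcx pyruvate carboxylase, and Aldh18a1 the first enzyme of proline synthesis. Pck2 averaged 45.4 CPM in control, 102 at 1 Hz, 97.6 at 4 Hz, and 46.8 at 10 Hz, with log2 fold changes of 1.16, 1.10, and 0.04. Herpud1 averaged 220, 502, 453, and 221 CPM. These were chosen for their likeness, and the libraries share condition, depth, and preparation, so no test is given.

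The wider pathway was described with lists of genes by role, none of which holds one of the 10. Of 67 tested genes in 6 lists, 29 rose and 1 fell at 1 Hz, 19 rose and 2 fell at 4 Hz, and 2 rose and 0 fell at 10 Hz. The shares of all genes are given above. These lists too were chosen with earlier results of these data known, so those shares are not an independent yardstick. Of 10 tested genes of amino acid synthesis, 8 rose at 1 Hz and 7 at 4 Hz, with median log2 fold changes of 0.75 and 0.66. At 10 Hz 0 passed (edgeR, likewise by DESeq2, and 1 with an unadjusted p below 0.05), and the median was 0.07. Cth, the last enzyme of cysteine synthesis from methionine, rose by 1.53 ± 0.19 at 1 Hz and 1.34 ± 0.19 at 4 Hz. Aldh1l2, of mitochondrial folate metabolism, rose by 1.07 at 1 Hz, and Pycr1, of proline synthesis, by 1.07 at 4 Hz.

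Among 8 tested amino acid transporters, 4 rose at 1 Hz, 2 at 4 Hz, and 1 at 10 Hz. Slc7a11, the cystine importer that supplies glutathione synthesis, rose at every frequency, by 1.54 at 1 Hz, 1.46 at 4 Hz, and 0.96 at 10 Hz (adjusted p = 0.018 for the last). Slc7a1, a carrier of arginine and lysine, rose by 0.92 at 1 Hz and Slc6a9, a glycine carrier, by 0.57 at 4 Hz. The count at 4 Hz was 1 without 4 Hz library 6. Aminoacyl-tRNA synthetases known as ATF4 targets, together with the tRNA exporter Xpot, shifted by less: 3 of 13 rose at 1 Hz, including Iars (0.65) and Cars (0.54), and 0 passed at 4 or 10 Hz. Their median was 0.42 at 1 Hz and 0.32 at 4 Hz. In the upward direction, 12 and 10 of the 13 had an adjusted p below 0.05. Of all 13318 tested genes, 4720 and 5251 did so in either direction (edgeR). At 10 Hz, 1 of the 13 had an unadjusted p below 0.05 (edgeR and DESeq2 alike). Of 8 other synthetases, 1 rose at 1 Hz (Vars, 0.57) and 1 at 4 Hz (Dars, 0.54, lost without control library 4 or 4 Hz library 3 or 5), and their medians were -0.04 and -0.08.

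**Figure D4:**
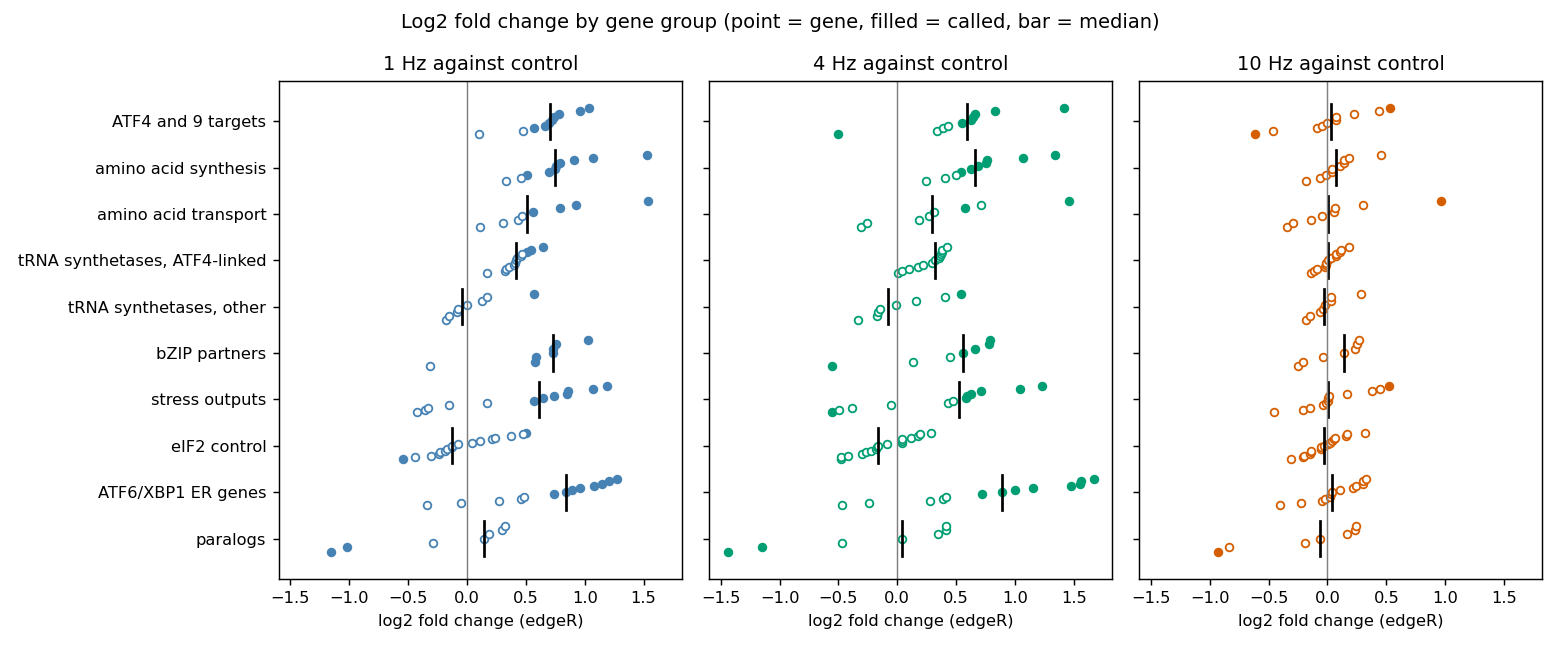
Log2 fold change against control (horizontal axis, edgeR) at 1, 4, and 10 Hz for each gene (point) of 10 lists, with filled points past the test and a bar at the list median. The medians of the 10 genes and of amino acid synthesis lie at 0.71 and 0.75 at 1 Hz, and near 0 at 10 Hz, and those of the other tRNA synthetases and of eIF2 control lie near 0 throughout.

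bZIP partners of ATF4 and related factors rose in 6 of 7 cases at 1 Hz and 4 of 7 at 4 Hz. Cebpb rose by 1.03 and 0.79, Cebpg by 0.76 at 1 Hz, and Jdp2 by 0.78 at 4 Hz, while Cebpd fell at 4 Hz (-0.56, adjusted p = 0.024), a call lost without control library 1 or 3 or 4 Hz library 3 or 4. Stress outputs and secreted factors were mixed, with 7 of 12 higher at 1 Hz and 6 higher and 1 lower at 4 Hz. Herpud1 rose by 1.19 and 1.04, and Fgf21, a hormone that muscle releases under mitochondrial stress, by 1.07 and 1.23. The fall at 4 Hz was Bbc3, which encodes the cell death protein PUMA (-0.56, adjusted p = 0.024). Ddit4, an inhibitor of mTORC1, was the gene that rose at 10 Hz (0.52, adjusted p = 0.0498), and of the 12 fits that each left out 1 library only those without control library 2 or 10 Hz library 3 kept that call.

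The upstream list held the eIF2 kinases, phosphatase subunits, and eIF2 and eIF2B subunits. Of its 17 genes 1 rose and 1 fell at 1 Hz, against 9.34% and 8.99% of all tested genes. At 1 Hz, Eif2ak3, which encodes PERK, rose by 0.50 (adjusted p = 0.00022) and Eif2b4 fell by 0.54, and neither held throughout: Eif2ak3 did not pass by DESeq2 or without control library 4 or 6 or 1 Hz library 2 or 4, and Eif2b4 not without control library 4 or 1 Hz library 3 or 4. By edgeR and by DESeq2, 0 genes passed at 4 or 10 Hz, where 7 and 3 had an unadjusted p below 0.05 by edgeR. The median of the upstream list was -0.12, -0.17, and -0.03. In the list of ER chaperones and folding factors driven mainly by ATF6 and XBP1, the other arms of the unfolded protein response, 8 of 13 rose at 1 Hz and 8 at 4 Hz, and 0 passed at 10 Hz (edgeR and DESeq2, 4 with an unadjusted p below 0.05), with medians of 0.84, 0.89, and 0.03. Hspa5, the chaperone BiP, rose by 1.20 and Sdf2l1 by 1.27 at 1 Hz, and Sdf2l1 by 1.67 and Manf by 1.56 at 4 Hz. Among 7 tested paralogs of the 10 genes, 0 rose in any comparison with control (edgeR and DESeq2, with an unadjusted p below 0.05 upward for 2, 3, and 1). Trib2 fell at 1 and 4 Hz (-1.16 and -1.44), Trib1 fell at 4 and 10 Hz (-1.15 and -0.93), and Chac2 fell at 1 Hz (-1.02).

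In these lists too, the covariate removed most calls. With the small RNA share in the fit, 0 genes of the 6 pathway lists rose at 1 or 4 Hz, and 1 transporter at 10 Hz, while the medians were 0.46 and 0.35 for amino acid synthesis at 1 and 4 Hz, where 6 and 3 of 10 genes had an unadjusted p below 0.05. In the ATF6 and XBP1 list 4 of 13 still rose at 4 Hz, and its medians were 0.56 and 0.59. The muscle fiber markers moved alongside, with 5 of 8 higher at 1 Hz, 6 at 4 Hz, and 3 at 10 Hz, or 1 without 10 Hz library 6 (Myh3, an embryonic myosin, by 1.23, 1.26, and 0.82). Markers of other cells moved as well. Of 7 myoblast and proliferation markers, which summed to 67.7 to 101 CPM in control, 62.7 to 80.8 at 1 Hz, 76.4 to 128 at 4 Hz, and 84.4 to 114 at 10 Hz, Pax7 rose at 1 Hz (0.99) and 4 Hz (1.04), Mki67 (1.28) and Top2a (0.69) rose at 4 Hz, and Myf5 fell at 4 Hz (-0.61). At 10 Hz 0 of them passed (edgeR and DESeq2, 1 with an unadjusted p below 0.05). Ccnb1, Id1, and Id3 were higher at 4 Hz than at 1 Hz (0.72, 0.67, and 0.80). Of 3 tested fibroblast markers, Dcn fell at 4 Hz (-0.59). The part of cell composition in the levels of the 10 genes was not tested.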

How the data were processed

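Bulk RNA-seq was analysed for 24 tissues, 6 per condition, grouped by sample title. The authors made directional poly(A) libraries (ribodepleted for low-input samples) and ran STAR and Salmon through nf-core/rnaseq against GRCm39, with no Ensembl release stated. Deposited were estimated counts (expected counts) per gene, not normalized, and TPM, which the authors scaled to a fixed sum per library. The submitters' processing notes also name BWA 0.7.12-r1039 and bedtools 2.25.0.

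Estimated counts were rounded. Genes were kept with filterByExpr (13318 genes, 99.8% of counts), and TMM scaling and the quasi-likelihood test (edgeR 4.0.16, R 4.3.3) came from a single fit of the 24 libraries by condition (common dispersion 0.0233). A call required both an adjusted p (BH) under 0.05 and a log2 fold change beyond 0.5 either way, as in the study. Against control, 5910, 6367, and 2750 of the 13318 genes had an unadjusted p under 0.05 at 1, 4, and 10 Hz (edgeR, either direction). Values after ± are the SE of edgeR's log2 fold change, and intervals of 95% come from it. CPM are TMM-scaled, except the small RNA share. Overlap of libraries between conditions was described for the members and was not counted over all tested genes. Total counts of 4.09 to 15.2 M set the counting error, largest for Chac1 and Sesn2, the lowest of the members. The table pairs identifiers with gene names.

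The study used DESeq2 with apeglm, run here (DESeq2 1.42.0, apeglm 1.24.0) as an alternative beside limma 3.58.1 on log2(TPM + 1) and log2(TPM + 0.1), restricted to a mean TPM of 1 or more, which understate changes of low genes. Others were DESeq2 size factors, total count scaling, no filter, a mean of at least 5 CPM, only the 12 libraries compared, a replicate block, the small RNA share or, chosen after seeing the data, the mitochondrial share as a covariate (both in log2), an adjusted p alone, and each library left out. Simulated data for 1 Hz against control held 200 changed genes, where 1244 rose and 1197 fell in the measured data. On the simulated data edgeR recovered 83.0% (1.78% of calls false, 13137 genes), DESeq2 86.5% (2.26% false, 13318 genes), and limma 83.5% (1.18% false, 13318 genes). The limma fit on log2(TPM + 1) held 13627 genes, so the simulated limma rates are not those of that fit. The rates were not split by size of change, and recovery near the fold limit was not tested.

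The members and gene lists were chosen with earlier results of these data known. Named genes were the 10 members, the 5 genes with a mean of at least 10 CPM most correlated with them, and, per list and comparison with control, up to 2 called genes each way with the largest change, with Mars1, Mbd6, Nup62, and Il4i1 named for their overlap and Top2a, Ccnb1, Id1, and Id3 named after their values were seen. Some synthetases were matched through older symbols. Positions came from GENCODE M39 (GRCm39), where 99.8% of tested genes were found. All 60 pairs of libraries within a condition differed by more than sampling noise. Python 3.11.15, pysam 0.24.0, and matplotlib 3.10.9 were used.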

Additional observations from a re-analysis of the deposited data

Results flagged for a closer look

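2 of the 40 groups of 6 libraries (10 genes in 4 conditions) held a library far from the others, where chance gives about 1 in 20. Sesn2 in control library 2 was at 91.7 CPM, with the nearest control at 54.7. That library was also the highest control for Trib3 (124 CPM), Chac1 (60.2 CPM), and Asns (124 CPM), and it had the lowest small RNA share among the controls (96.1 CPM). Asns in 10 Hz library 6 was at 145 CPM, with the nearest 10 Hz library at 122, and that library had the lowest small RNA share of its condition (36.9 CPM). The cause of either value was not tested.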

How the results depend on the processing

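Of 1470 alternative fold changes of the 10 genes, 1301 kept their direction and their side of the thresholds, 122 lost a call, 18 gained one, and 29 changed sign. The number of the 10 that passed at 1 Hz was 8, and 0 with the small RNA covariate. At 4 Hz it was 7, 3 by limma on log2(TPM + 1), log2(TPM + 0.1), or without a filter, and 2 with the covariate. In TPM the median of all genes moved by -0.16 at 4 Hz, and by -0.11 under total count scaling, where 1012 genes rose and 1821 fell against 1396 and 1280. At 1 Hz total count scaling gave 942 and 1595 against 1244 and 1197. At 10 Hz the number was 2, 1 with DESeq2 size factors, total count scaling, the 12 libraries compared, or either covariate (small RNA or mitochondrial share), and 0 with apeglm or limma in any of its 3 forms. In the test of 10 Hz against 1 Hz it was 8, 4 with the mitochondrial share as covariate, and 0 with the small RNA share. In that of 10 Hz against 4 Hz it was 4, 2 by limma with either pseudocount, and 1 by limma without a filter. It was 0 with the covariate and 9 on adjusted p alone, where 3037 of all 13318 tested genes passed in either direction. Between 4 and 1 Hz the number of the 10 was 1, or 2 on adjusted p alone, where 1634 of all genes passed. Leaving out 1 library gave 8 to 9 at 1 Hz, 6 to 7 at 4 Hz, 0 to 2 at 10 Hz, 0 to 1 for 4 Hz against 1 Hz, 6 to 9 for 10 Hz against 1 Hz, and 2 to 7 for 10 Hz against 4 Hz. The cause of these differences was not tested.

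The 29 sign changes fell on these values. At 10 Hz, Chac1 (-0.00) was 0.016 without a filter, 0.0088 with at least 5 CPM, 0.0053 by DESeq2, 0.00088 with apeglm, 0.00052 with the 12 libraries compared, 0.0061 with the replicate block, and -0.13 to 0.29 without 1 library, the highest without control library 2. Ddit3 (0.07) was -0.088 by limma at either filter and -0.089 at the smaller pseudocount, and -0.027 to 0.13 without 1 library. Asns (0.08) was -0.021 by limma with either filter and -0.022 at the smaller pseudocount. Slc7a5 (-0.05) was -0.093 to 2.9e-05 without 1 library. With the small RNA covariate, Sesn2 went from 0.10 to -0.14 at 1 Hz and from -0.11 to 0.10 between 10 and 4 Hz, and Trib3 from 0.33 to -0.20 at 4 Hz. With the mitochondrial covariate, Sesn2 was -0.15 at 1 Hz and 0.014 between 10 and 4 Hz, Chac1 0.22 and Slc7a5 0.073 at 10 Hz, and between 4 and 1 Hz Atf5 went from -0.11 to 0.096, Trib3 from -0.32 to 0.0044, and Chac1 from -0.30 to 0.041.

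Replicate numbers were not used as pairs in the main fit, and the values did not settle whether they pair the samples. Same-numbered libraries of different conditions correlated at -0.18 to 0.36 (median 0.02, over 0.1 in 10 of 36 pairs), and other libraries at a median of -0.01. Of 24 libraries, 10 went best with their own number. With the replicate block more genes had an adjusted p below 0.05 in every comparison (edgeR), such as 4957 against 4720 at 1 Hz and 828 against 651 at 10 Hz. With the replicate block, 8 of the 10 genes passed at 1 Hz, 6 at 4 Hz, 1 at 10 Hz, 1 for 4 Hz against 1 Hz, 8 for 10 Hz against 1 Hz, and 4 for 10 Hz against 4 Hz, and Sesn2 lost its calls at 4 and 10 Hz (-0.47 and -0.58).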
